A study of Arabidopsis thaliana with 7 samples.

Results

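A set of 10 genes for transcription factors that set root hair fate and growth in Arabidopsis thaliana were followed through low phosphate in 3 kinds of RNA library. They were chosen by name, as rows of the deposited count tables, out of 27416 coding genes: WER (AT5G14750), GL2 (AT1G79840), CPC (AT2G46410), RHD6 (AT1G66470), RSL1 (AT5G37800), RSL2 (AT4G33880), RSL4 (AT1G27740), LRL1 (AT2G24260), LRL2 (AT4G30980) and LRL3 (AT5G58010). All 10 had a row in both the coding table and the table of double-stranded RNA. The low phosphate roots came from seedlings aged 14 d that had spent the last 7 d on new medium with 0 µM phosphate, and the control roots from seedlings of that age kept for as long on medium with 500 µM phosphate. There were 2 bioreplicates per condition of ribosome footprints, of poly(A) RNA and of RNA kept as double strands (double-stranded RNA).

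Root hairs grow from epidermal cells that lie over the cleft between underlying cortical cells, while the other epidermal cells stay hairless. WER, a MYB factor, works in a complex that turns on GL2 in the hairless cells, and GL2, a homeodomain factor, holds back the hair programme there; CPC, a small MYB protein that moves between cells, counters WER in the hair cells. RHD6 and RSL1, basic helix-loop-helix (bHLH) factors, start the hair, RSL2 and RSL4 act after them in its growth, and the LRL bHLH factors are needed for its growth as well. Arabidopsis is known to make longer and denser root hairs when phosphate is short.

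Both conditions of the footprint and poly(A) libraries used Col-0 plants with a FLAG-tagged ribosomal protein under the 35S promoter, which the protocols name His6FLAG-RPL18B and the sample characteristics 35S:HF-FLAG-RPL8. The double-stranded RNA samples carry the line label Col-0 and came from total RNA treated with a single-strand-specific ribonuclease. For poly(A) and double-stranded RNA, low phosphate samples carry the treatment description of the controls, and the sample titles set their condition here. Whole roots were used, so fewer cells of a type and less RNA per cell cannot be told apart in any value below. Nothing states how the bioreplicates were separated. The p-values measure the spread between these libraries, which the fits estimate in part over many genes together. In the double-stranded RNA fit the p-values match a normal distribution of the log2 change over its standard error. The spread there was in effect pooled over genes, and a gene's own libraries weighed little in it. Counted reads per library ran between 7156329 and 12817826 for footprints, between 18262547 and 26746252 for poly(A) RNA and between 2735264 and 8249514 for double-stranded RNA, and levels are given as CPM, reads scaled to the effective library size. Markers of root endodermis, stele and root cap, and of green tissue, had reads in every library.

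RSL2 was the member with the largest low phosphate change that passed the test, and both its low phosphate libraries lay above both control libraries in each of the 3 assays, with a call in footprints and in double-stranded RNA. Of the genes that set hairless or hair fate among the 10, WER and GL2 did not pass in any assay, and CPC did not pass in poly(A) RNA or footprints and was not tested in double-stranded RNA. In poly(A) RNA 0 of 10 members passed edgeR's quasi-likelihood test (Benjamini-Hochberg adjusted p under 0.05), against a background of 1.18% of 19866 genes tested, 0.931% called higher and 0.252% lower. At an unadjusted p under 0.05 there were 3, and DESeq2 called 2, RSL2 and LRL3. In ribosome footprints 1 of 10, RSL2, was higher, against 0.911% of genes called higher. In double-stranded RNA 3 of the 8 members that could be tested, RSL2, RHD6 and LRL3, were higher, against 10.2% of 17570 genes called higher, and 0 were lower, against 5.57%.

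The direction over the whole set can be read from medians and from the libraries themselves. The median log2 change of the 10 was 0.51 in poly(A) RNA and 0.28 in footprints, beside 0.0030 and 0.0019 over all genes tested. Both low phosphate libraries of 6 of the 10 lay above both control libraries in poly(A) RNA, a pattern that 21.6% of genes showed, 0 lay below (20.2% of genes), and 4 overlapped. In footprints 4 lay above (19.5% of genes), 1 lay below (18.4% of genes) and 5 overlapped. In double-stranded RNA 6 of the 8 tested lay above (26.8% of genes) and 1 below (27.1% of genes), with a median of 0.54 beside -0.016 over all genes.

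**Figure D1:**
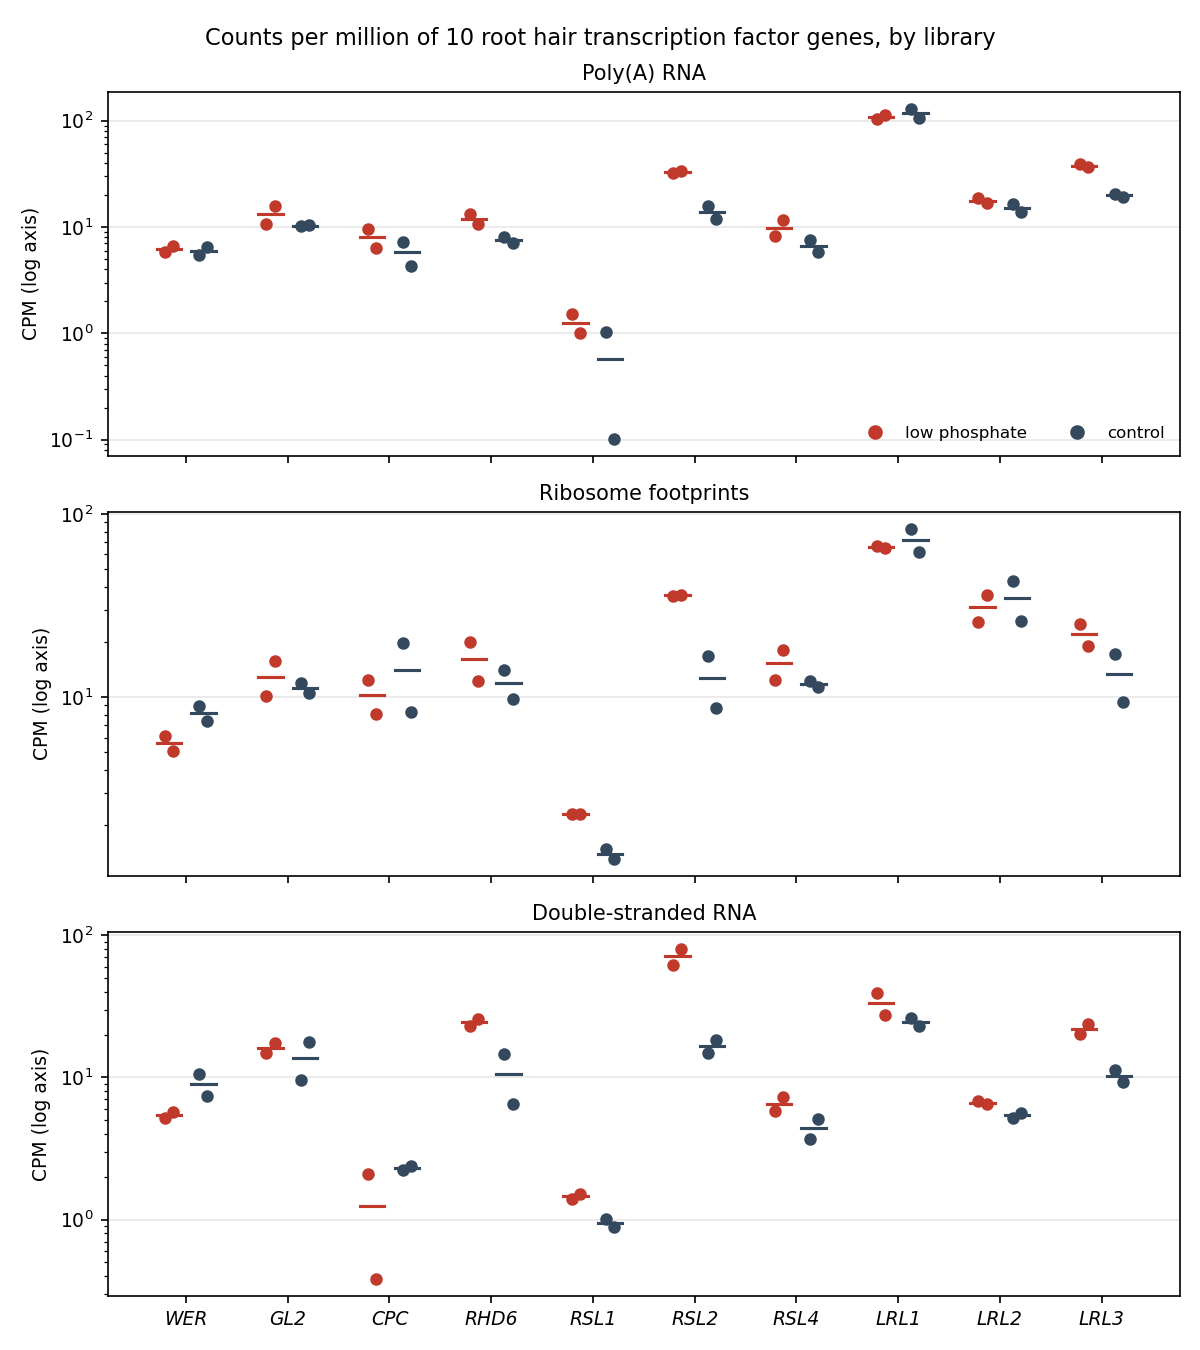
CPM (log axis) of the 10 genes in each library, with low phosphate (red) left of control (dark) and a bar at the mean of each pair, for poly(A) RNA, ribosome footprints and double-stranded RNA. RSL2, LRL3 and RSL4 do not overlap between conditions in any of the 3 panels, by a narrow margin for RSL4 in footprints. LRL1 and WER overlap in poly(A) RNA.

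WER and GL2, which mark and maintain the hairless fate, did not pass in any assay. WER had 5.81 and 6.66 CPM in low phosphate poly(A) libraries and 5.44 and 6.42 CPM in control, a log2 change of 0.08 ± 0.24 (SE, n = 2 libraries each; edgeR adjusted p = 0.981). Its footprints were 6.15 and 5.09 CPM in low phosphate against 8.92 and 7.39 CPM in control, and its double-stranded RNA 5.14 and 5.71 CPM against 10.5 and 7.44 CPM. The low phosphate libraries thus lay below both control libraries in those 2 assays, but neither difference passed: the log2 changes were -0.53 ± 0.26 (edgeR adjusted p = 0.481) and -0.78 ± 0.39 (edgeR adjusted p = 0.171). GL2 had 10.7 and 15.7 CPM in low phosphate against 10.2 and 10.4 CPM in control poly(A) RNA, where a single low phosphate library was high, and 10.1 and 15.7 CPM against 11.9 and 10.6 CPM in footprints, where the groups overlapped. In double-stranded RNA it had 14.7 and 17.5 CPM against 9.61 and 17.8 CPM, again overlapping. Its log2 changes were 0.36 ± 0.26, 0.19 ± 0.28 and 0.30 ± 0.31 in poly(A) RNA, footprints and double-stranded RNA, with edgeR adjusted p of 0.821, 0.837 and 0.587.

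CPC, the mobile promoter of hair fate, overlapped between conditions in both coding assays. It had 9.58 and 6.38 CPM in low phosphate and 7.26 and 4.30 CPM in control poly(A) libraries, a log2 change of 0.45 ± 0.41 (edgeR adjusted p = 0.888). Its footprints were 12.5 and 8.11 CPM in low phosphate and 19.8 and 8.26 CPM in control, where the control libraries lay far apart. The footprint change was -0.43 ± 0.43 (edgeR adjusted p = 0.749). In double-stranded RNA CPC had only 9 and 1 reads in low phosphate and 20 and 8 in control, too few to be tested. Scaled to depth, the low phosphate libraries lay below both controls there, at 2.10 and 0.381 CPM against 2.24 and 2.38 CPM.

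A relative of CPC moved where CPC did not pass. Of 14 other genes of epidermal fate, 11 were tested in the coding table, and ETC3, a small MYB gene of the CPC family, was the 1 called in poly(A) RNA and in footprints. Among all genes 0.931% and 0.911% were called higher there. Of the 11, 9 were above 0 and 2 below in poly(A) RNA (median 0.20). In footprints 5 were above and 6 below (median -0.0088). At an unadjusted edgeR p under 0.05 there were 2 in poly(A) RNA and 5 in footprints, the latter in both directions. ETC3 had 107 and 120 reads (4.64 and 4.30 CPM) in low phosphate poly(A) libraries and 11 and 4 reads (0.391 and 0.202 CPM) in control. Its footprints numbered 154 and 77 in low phosphate and 11 and 3 in control, and its double-stranded RNA reads 36 and 29 against 7 and 3. No library of one condition reached the other in any assay. The log2 changes were 3.82 ± 0.49, 3.41 ± 0.50 and 3.51 ± 0.53 (edgeR adjusted p = 0.00506, 0.00964 and 1.86e-09). Without poly(A) control replicate 1 or 2 the poly(A) value became 4.40 and 3.47, with adjusted p of 0.0561 and 0.0517, and without footprint low phosphate replicate 1 the footprint value became 3.17, with adjusted p of 0.0827.

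Of 10 such fate genes tested in double-stranded RNA 3 rose, ETC3, ETC1 and SCM, where 10.2% of all genes were called higher. Of the 10, 8 were above 0 and 2 below, with a median log2 change of 0.72. ETC1, also of the CPC family, had 9.35 and 5.33 CPM in low phosphate against 0.559 and 0.892 CPM in control (3.47 ± 0.58, edgeR adjusted p = 5.94e-08). These values rest on 40 and 14 reads against only 5 and 3, and leaving out 1 library moved the change between 2.96 and 3.79. ETC1 had 3.17 and 3.83 CPM against 2.06 and 2.43 CPM in poly(A) RNA, a change of 0.65 ± 0.32 that did not pass (edgeR adjusted p = 0.629). SCM, a receptor kinase gene of epidermal position sensing, had 52.1 and 41.5 CPM against 25.0 and 26.8 CPM in double-stranded RNA (0.87 ± 0.24, edgeR adjusted p = 0.00432), a call lost without control replicate 1 (adjusted p = 0.457) or 2 (adjusted p = 0.286). TTG1, the WD40 protein of the WER complex, was at 0.13 ± 0.15 in poly(A) RNA (edgeR adjusted p = 0.927). Whether the double-stranded and poly(A) changes of a gene differ was not tested, since the libraries came from other extracts and kits.

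RHD6 and RSL1 start the outgrowth of the hair. RHD6 had 13.2 and 10.6 CPM in low phosphate and 8.11 and 7.13 CPM in control poly(A) RNA. Both low phosphate libraries were above both controls, with a log2 change of 0.64 ± 0.27 that did not pass (unadjusted p = 0.0414, edgeR adjusted p = 0.525). Its footprints overlapped, at 19.9 and 12.2 CPM in low phosphate and 14.1 and 9.71 CPM in control (0.44 ± 0.29, edgeR adjusted p = 0.598). Its double-stranded RNA rose, with 23.1 and 25.9 CPM in low phosphate against 14.6 and 6.54 CPM in control, a log2 change of 1.10 ± 0.29 (edgeR adjusted p = 0.00178). The control libraries differ widely there: without control replicate 2 the change was 0.74, with an adjusted p of 0.471.

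RSL1 was the lowest of the 10 in counts in the coding table. It had 35 and 28 reads in low phosphate and 29 and 2 reads in control poly(A) libraries, where the groups overlapped and 1 control library was far below the rest (log2 change 1.06 ± 0.73, edgeR adjusted p = 0.812). Footprints were 28 and 19 in low phosphate against 10 and 9 in control (0.72 ± 0.79, edgeR adjusted p = 0.773). Leaving out 1 library moved the poly(A) change between 0.27 and 3.52. With 6 and 4 double-stranded RNA reads in low phosphate against 9 and 3 in control, it was not tested in that assay. Scaled to depth, the low phosphate libraries lay above both controls in footprints, at 2.29 and 2.30 CPM against 1.49 and 1.305 CPM, and in double-stranded RNA, at 1.40 and 1.52 CPM against 1.01 and 0.892 CPM. The double-stranded RNA values rest on 3 to 9 reads a library.

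RSL2 and RSL4 take the programme on into hair growth, and RSL2 was called in footprints and in double-stranded RNA. Poly(A) RNA of RSL2 stood at 32.0 and 33.8 CPM in low phosphate against 15.8 and 12.0 CPM in control, a 2.36-fold difference (log2 change 1.24 ± 0.25). Replicates lay close together and apart from the other condition, yet the edgeR adjusted p of 0.0577 missed the threshold in the fit of all 8 coding libraries. It passed with DESeq2 (adjusted p = 0.000778), without a low-count filter (0.00458) and in a fit of the 4 poly(A) libraries alone (0.0259), and leaving out 1 library gave adjusted p from 0.0135 to 0.398. Its footprints were 35.5 and 36.2 CPM in low phosphate against 16.8 and 8.70 CPM in control, 2.81-fold higher (log2 change 1.49 ± 0.27, edgeR adjusted p = 0.0327). That call did not hold without footprint control replicate 2 (1.10, adjusted p = 0.0836), low phosphate replicate 1 (0.154) or replicate 2 (0.0963), nor in a fit of the footprint libraries alone (0.0638). It also missed without poly(A) low phosphate replicate 1 (0.0518) or 2 (0.0534), whose spread the fit shares. Double-stranded RNA of RSL2 stood at 61.3 and 80.4 CPM in low phosphate against 14.9 and 18.4 CPM in control, 4.31-fold higher (log2 change 2.11 ± 0.25, edgeR adjusted p = 3.83e-15), and remained called without each library in turn (1.93 to 2.31).

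RSL4, a regulator of how long the hair grows, did not pass in any assay. It had 8.19 and 11.6 CPM in low phosphate and 7.51 and 5.81 CPM in control poly(A) RNA (0.57 ± 0.26, edgeR adjusted p = 0.581). Its footprints were 12.5 and 18.2 CPM against 12.2 and 11.3 CPM (0.37 ± 0.27, edgeR adjusted p = 0.641), and its double-stranded RNA 5.84 and 7.24 CPM against 3.69 and 5.06 CPM (0.62 ± 0.43, edgeR adjusted p = 0.378). The low phosphate libraries lay above both control libraries in all 3 assays, by a margin that was narrow in footprints. The difference between RSL2 and RSL4 was not tested.

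Among 4 other RSL and LRL bHLH genes 3 were tested, and AT2G14760 was called in double-stranded RNA. It had 7.25 and 8.00 CPM in low phosphate against 1.12 and 0.595 CPM in control, a log2 change of 2.96 ± 0.54 (edgeR adjusted p = 1.19e-06). These values rest on 31 and 21 reads in low phosphate and only 10 and 2 in control. Its poly(A) RNA had 3.12 and 4.41 CPM against 1.32 and 2.17 CPM (1.13 ± 0.36, edgeR adjusted p = 0.282), which did not pass, and in footprints 0.72 ± 0.39 (edgeR adjusted p = 0.522). The call was 1 of 3 tested in double-stranded RNA, where 10.2% of all genes were called higher. For this list edgeR and DESeq2 each called 0 of 3 in poly(A) RNA and in footprints, with 1 and 2 at an unadjusted p under 0.05. In each of these 2 assays 1 gene was above 0 and 2 below, with medians of -0.24 and -0.49. The 2 in footprints were therefore not all rises.

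**Figure D2:**
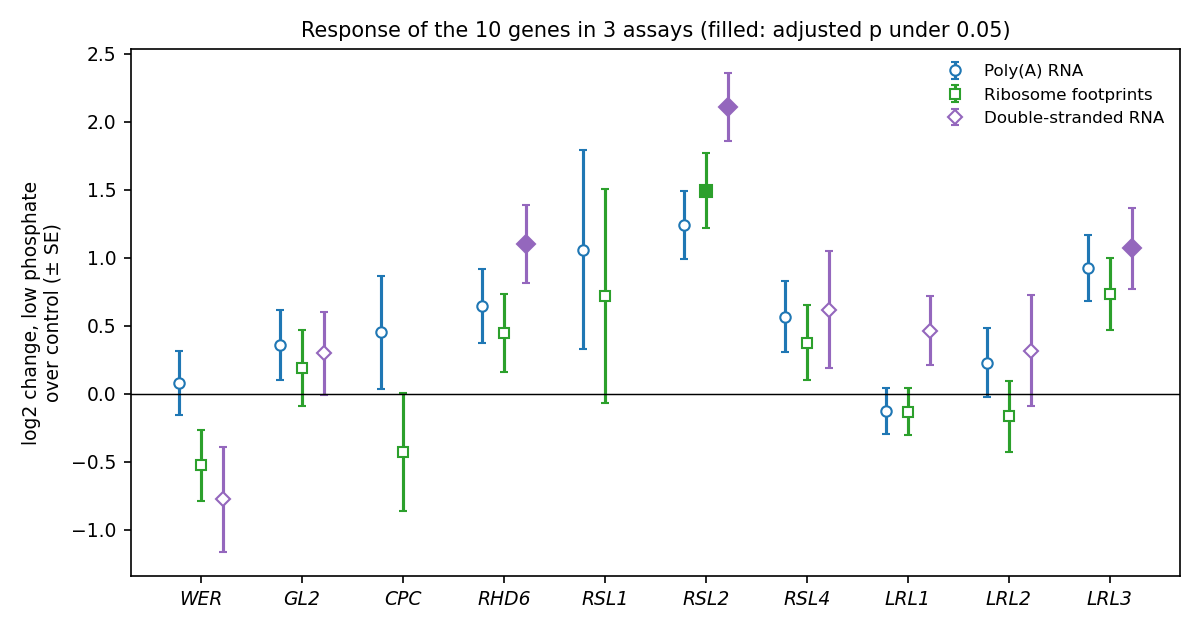
Log2 change of low phosphate over control (± SE) of each of the 10 genes in poly(A) RNA, footprints and double-stranded RNA, filled where the edgeR adjusted p was under 0.05. RSL2 was at 1.24, 1.49 and 2.11, and RSL1 and CPC have no double-stranded RNA value because they were not tested there.

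The LRL genes are bHLH regulators of hair growth, and differences between them in response were not tested. LRL3 had 39.0 and 36.5 CPM in low phosphate and 20.5 and 19.3 CPM in control poly(A) RNA, 1.90-fold higher with no overlap. The log2 change of 0.92 ± 0.24 did not pass in the fit of all coding libraries (edgeR adjusted p = 0.159). It did with DESeq2 (adjusted p = 0.0328), without a low-count filter (0.0403) and in the poly(A) libraries alone (0.0292). Leaving out 1 library gave changes from 0.86 to 0.96, and LRL3 did not pass when any of the poly(A) libraries was left out. In footprints LRL3 had 25.2 and 18.9 CPM against 17.2 and 9.42 CPM, the low phosphate libraries again above (0.73 ± 0.26, edgeR adjusted p = 0.325). Its double-stranded RNA rose, at 20.3 and 23.6 CPM in low phosphate against 11.2 and 9.22 CPM in control (1.07 ± 0.30, edgeR adjusted p = 0.00377), a call lost without control replicate 1 (1.24, adjusted p = 0.149) or 2 (0.97, adjusted p = 0.249).

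LRL1 and LRL2 did not pass in any assay. LRL1 had 104 and 112 CPM in low phosphate and 130.3 and 106 CPM in control poly(A) RNA (-0.13 ± 0.17, edgeR adjusted p = 0.935), and 67.0 and 64.9 CPM against 83.1 and 61.6 CPM in footprints (-0.13 ± 0.17, edgeR adjusted p = 0.815). LRL2 had 18.6 and 16.9 CPM in low phosphate and 16.5 and 13.7 CPM in control poly(A) RNA (0.23 ± 0.25, edgeR adjusted p = 0.914), and overlapping footprints of 25.6 and 36.2 CPM against 43.2 and 25.9 CPM (-0.17 ± 0.26, edgeR adjusted p = 0.844). In double-stranded RNA both had their low phosphate libraries above the controls, LRL1 at 39.5 and 27.4 CPM against 25.9 and 22.9 CPM and LRL2 at 6.78 and 6.47 CPM against 5.14 and 5.65 CPM. Neither passed, at 0.46 ± 0.25 (edgeR adjusted p = 0.228) and 0.32 ± 0.41 (edgeR adjusted p = 0.677), though LRL1 did so without low phosphate replicate 2 (0.68, adjusted p = 0.00715).

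How densely ribosomes covered these messages was read from footprints over poly(A) RNA in one fit, relative to the average of all genes. LRL2 stood above that average in both conditions, with log2 ratios of 0.80 ± 0.25 in low phosphate and 1.19 ± 0.26 in control (edgeR adjusted p = 0.0384 and 0.00694). LRL1 stood below in both, at -0.71 ± 0.17 in low phosphate and -0.71 ± 0.17 in control (edgeR adjusted p = 0.0120 and 0.0119). LRL3 was lower in low phosphate, at -0.77 ± 0.245 (edgeR adjusted p = 0.0373), and at -0.58 ± 0.26 in control, which did not pass (edgeR adjusted p = 0.113). RSL4 in control roots (0.81 ± 0.27, edgeR adjusted p = 0.0447) and CPC there (1.27 ± 0.43, edgeR adjusted p = 0.0463) were above the average, with adjusted p up to 0.206 and 0.446 when 1 library was left out. RSL2 was near it, at 0.12 ± 0.25 in low phosphate and -0.13 ± 0.27 in control.

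Such departures were common across the table. In low phosphate 1 member was called higher and 2 lower, where 15.8% and 16.9% of genes were; in control 3 were higher and 1 lower, where 17.1% and 17.6% of genes were. Leaving out 1 library gave 0 to 3 called members in low phosphate and 1 to 4 in control. In low phosphate the ratio of LRL1 then ran between -0.76 and -0.65, with adjusted p up to 0.0683, that of LRL2 between 0.53 and 1.03, with adjusted p up to 0.232, and that of LRL3 between -0.997 and -0.59, with adjusted p up to 0.193. The control ratio of LRL1 ran between -0.94 and -0.51, with adjusted p up to 0.101, and that of LRL2 between 0.78 (without footprint replicate 1) and 1.51, with adjusted p up to 0.0556.

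No member's change in this ratio under low phosphate passed the test. The change of translational efficiency, the footprint change less the poly(A) change, was called for 0 of 10 members by edgeR, with 0 at an unadjusted p under 0.05 and 0 by DESeq2, beside 0% of 19866 genes called by edgeR, 397 of them at an unadjusted p under 0.05, and 0 genes by DESeq2. Values ran from -0.88 ± 0.60 for CPC and -0.61 ± 0.35 for WER to 0.25 ± 0.37 for RSL2. The values of 9 of the 10, all but RSL2, were below 0, with a median of -0.19 beside -0.0098 over all genes. That of LRL1 was -0.0025 ± 0.24 and changed sign under other scalings. How many of all genes lay below 0 was not counted.

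**Figure D3:**
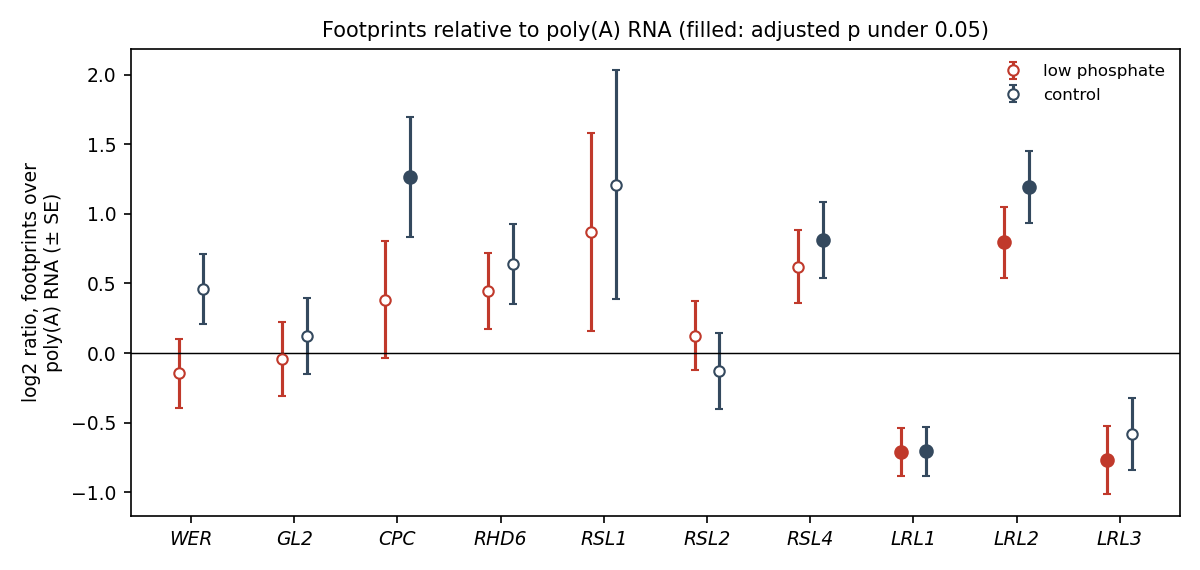
Log2 ratio of footprints over poly(A) RNA (± SE), relative to the average gene, for each of the 10 genes in low phosphate (red, left) and control (dark, right), filled where the edgeR adjusted p was under 0.05. LRL2 lies above 0 and LRL1 below 0 in both conditions.

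The genes that carry out hair growth were followed as a list of 35, of which 33 were tested. Of these 16 rose, 0 fell and 17 did not pass in poly(A) RNA, where 0.931% of all genes were called higher. The median log2 change was 0.89 beside 0.0030 over all genes. In footprints 17 rose and 0 fell (median 1.03), against 0.911% of genes called higher. In double-stranded RNA 28 rose and 0 fell (median 1.62), against 10.2% of genes called higher. DESeq2 called 17, 18 and 24 of the list in poly(A) RNA, footprints and double-stranded RNA. Their summed level was 2576 and 2488 CPM in low phosphate against 1496 and 1500 CPM in control poly(A) RNA, and 4284 and 3888 CPM against 1846 and 2082 CPM in footprints. Double-stranded RNA summed to 2439 and 2415 CPM against 1065 and 1099 CPM.

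Examples came from the growing cell wall. PRP3, a proline-rich wall protein gene, rose by 1.496 ± 0.16 in poly(A) RNA and 1.44 ± 0.16 in footprints (edgeR adjusted p = 0.00189 and 0.00250). XTH14, for a xyloglucan-modifying enzyme, rose by 1.82 ± 0.21 and 2.04 ± 0.21 (edgeR adjusted p = 0.00268 and 0.00188), and in double-stranded RNA by 2.58 ± 0.24 (edgeR adjusted p = 2.49e-25). EXPA7, a wall-loosening expansin gene of root hairs, had 71.5 and 77.1 CPM in low phosphate and 34.2 and 41.0 CPM in control poly(A) RNA (0.98 ± 0.15, edgeR adjusted p = 0.0111). Without poly(A) control replicate 1 the adjusted p was 0.167 for EXPA7 and 0.0524 for XTH14, and for EXPA7 it was 0.0582 and 0.0924 without low phosphate replicate 1 and 2. In double-stranded RNA LRX1, an extensin-like wall protein gene, rose by 2.71 ± 0.25 and RHS19, a peroxidase gene, by 2.90 ± 0.24 (edgeR adjusted p = 2.77e-25 and 1.75e-30).

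The list counts turn on single libraries. In poly(A) RNA 3 genes passed when control replicate 1 was left out, 10 when control replicate 2 was, and 9 when either low phosphate library was. In footprints the number was 8 with control replicate 1 left out and 11 with low phosphate replicate 1 left out, and in double-stranded RNA 18 with control replicate 1 left out.

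Regulators that act on the 10 factors, or modify their output, were a list of 14. In poly(A) RNA and footprints edgeR and DESeq2 called 0 of 14, with 1 and 0 at an unadjusted p under 0.05, and medians of -0.14 and 0.03. PHR1, the master regulator of phosphate starvation, was at -0.03 ± 0.15 in poly(A) RNA and 0.13 ± 0.15 in footprints (edgeR adjusted p = 0.989 and 0.785). ARF19, an auxin response factor upstream of RSL genes, was at 0.13 ± 0.21 and 0.16 ± 0.22 (edgeR adjusted p = 0.956 and 0.826). In double-stranded RNA edgeR called 1 of 13 tested, where 10.2% of all genes were called higher. This was ARF5, another auxin response factor, with 40.2 and 31.6 CPM in low phosphate against 22.8 and 16.7 CPM in control (0.84 ± 0.26, edgeR adjusted p = 0.00988). DESeq2 called 0 of this list there, with an adjusted p of 0.0508 for ARF5, and the edgeR adjusted p was 0.187 and 0.546 with control replicate 1 and 2 left out, and 0.0744 with low phosphate replicate 1 left out.

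**Figure D4:**
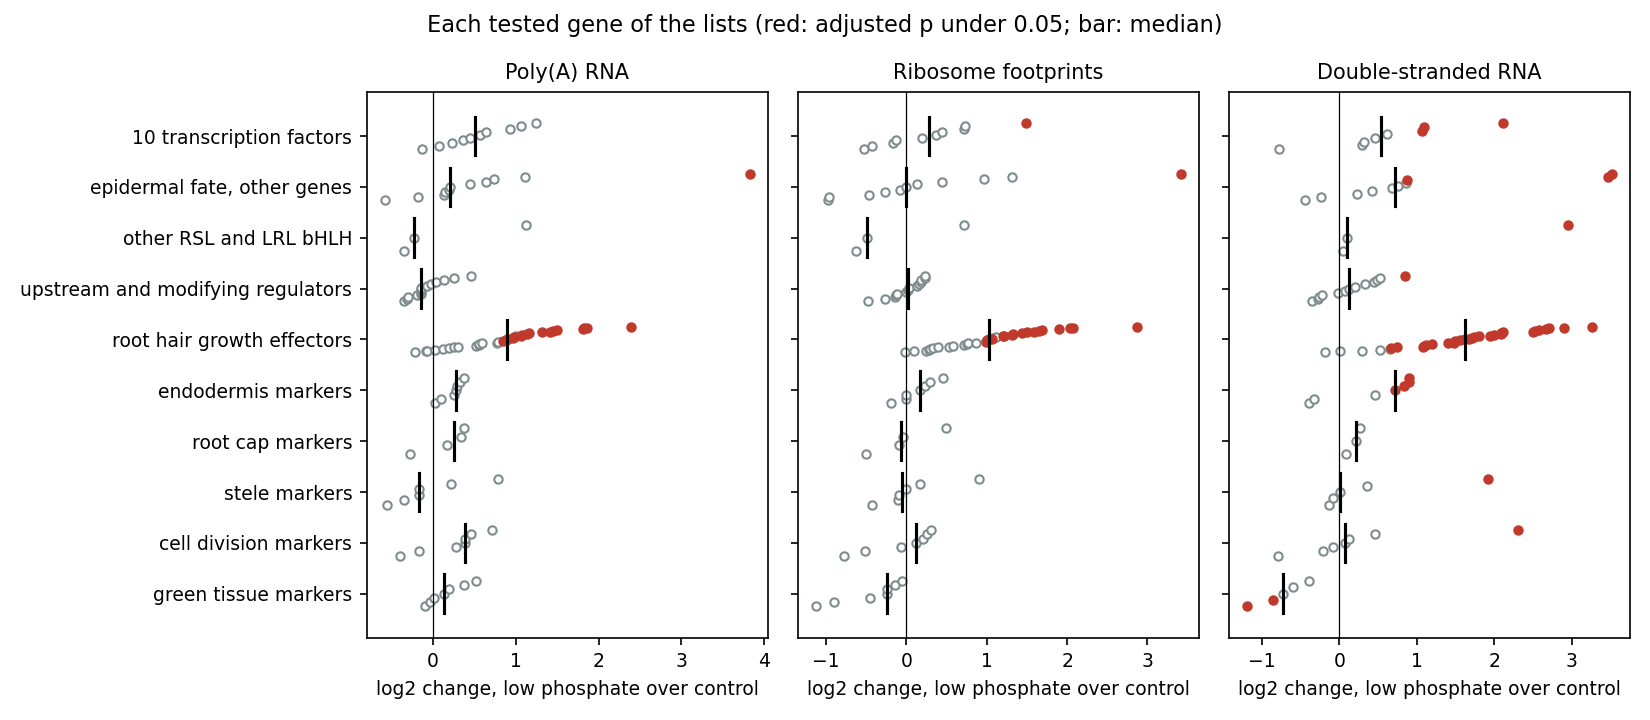
Log2 change of low phosphate over control for each tested gene of the 10 factors and of the other lists, in poly(A) RNA, footprints and double-stranded RNA; red points had an edgeR adjusted p under 0.05 and bars are medians. The medians of the hair growth genes, 0.89, 1.03 and 1.62, lie to the right of 0, and the isolated point of the fate genes at 3.82 in poly(A) RNA is ETC3.

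Markers of other cells of the root were read beside these values. In poly(A) RNA and footprints edgeR called 0 of 7 endodermis, 0 of 4 root cap, 0 of 6 stele, 0 of 7 dividing cell and 0 of 7 green tissue genes. At an unadjusted p under 0.05 the stele genes had 2 in each assay and the dividing cell genes 2 in poly(A) RNA and 1 in footprints, with 0 for the other lists. DESeq2 called 1 stele gene in each assay and 0 of the others. All markers were detected in every library. Endodermis markers summed in poly(A) RNA to 764 and 781 CPM in low phosphate and 658 and 609 CPM in control, the stele markers to 267 and 241 against 258 and 236 CPM, and the root cap markers to 15.6 and 19.1 against 12.2 and 17.2 CPM. Dividing cell markers summed there to 102 and 93.4 CPM in low phosphate against 79.1 and 75.9 CPM in control, with no overlap, as for the endodermis markers. Green tissue markers had 490 and 329 CPM against 211 and 513 CPM, where the libraries of each condition lay far apart. In footprints the stele markers summed to 356 and 313 CPM in low phosphate against 297 and 256 CPM in control, also with no overlap. Of these sums the single gene SUC2 held 169.5 and 141 CPM in low phosphate and 99.1 and 67.4 CPM in control. In footprints 4 of the 6 stele genes were below 0, with a median log2 change of -0.049.

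In double-stranded RNA some of these markers moved with the RSL2, RHD6 and LRL3 calls. Of the endodermis genes 4 of 7 were higher (CASP1, CASP2, ESB1 and PER64), from 0.71 to 0.90, and each of these calls was lost with either control library left out (adjusted p from 0.240 to 0.618). DESeq2 called 2 of the 7, with adjusted p of 0.142 for CASP2 and 0.0943 for PER64. In edgeR without the low-count filter PER64 missed as well (adjusted p = 0.0537). Of the 7 genes 2 were below 0, and 10.2% of all genes tested were called higher by edgeR. The whole list summed to 321 and 275 CPM in low phosphate against 192 and 182 CPM in control. SUC2, a phloem sucrose transporter gene, was higher by 1.91 ± 0.25 and CDKB2;2, a mitotic kinase gene, by 2.31 ± 0.34 (edgeR adjusted p = 1.90e-12 and 4.21e-10). Each was the 1 gene of its list to be called, of 5 stele and 7 dividing cell genes tested, whose medians were 0.0018 and 0.075, with 2 and 3 genes below 0. The green tissue genes LHCA1 and PSBO1 were lower, with log2 changes of -1.19 ± 0.32 and -0.86 ± 0.26 (edgeR adjusted p = 0.00244 and 0.00885; up to 0.255 and 0.488 with 1 library left out), and the list summed to 53.8 and 52.6 CPM against 80.3 and 109.7 CPM. Their part in the calls of the 10 factors was not tested.

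Levels of different genes can be compared only per length, which the deposited RPKM values (reads scaled to length and library) of the 3′ UTR allow within each poly(A) library for 9 of the 10 genes. LRL1 had the highest value in all 4 libraries, at 110.3 and 211 RPKM in low phosphate and 187 and 87.7 RPKM in control, and LRL3 came next in all 4, at 82.1 and 124 RPKM in low phosphate and 46.7 and 29.1 RPKM in control. LRL2, RSL2 and GL2 shared ranks 3 to 5, with RSL2 at rank 4 and 3 in low phosphate and at rank 4 and 5 in control. GL2 has 3′ UTRs of 78 and 427 nt that hold nearly the same reads, and the shorter was ranked. The longer had 4.38 and 6.19 RPKM in low phosphate and 2.96 and 2.525 RPKM in control. By these values GL2 would lie below RSL4, RHD6 and CPC in each library, so its place depends on that choice. RSL4 held rank 6 throughout. RHD6, CPC and WER shared the last 3 places, at 2.22 to 10.4 RPKM in low phosphate and 2.91 to 10.8 RPKM in control, where their order changed between libraries.

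Footprints before the start codon added a second readout of RSL2. Its 5′ UTR of 85 nt lies on chromosome 4 from 16241053 to 16241137 (TAIR10, minus strand) in the deposited table. Whole reads recovered from its RPKM numbered 23 and 9 in low phosphate and 1 and 2 in control footprint libraries, while all 4 poly(A) libraries had 0. Scaled to the coding footprints as CPM these are 1.89 and 1.09 in low phosphate against 0.149 and 0.290 in control, with no overlap. The 3′ UTR of RSL2, on chromosome 4 from 16239363 to 16239565, had 91 and 145 poly(A) reads in low phosphate and 85 and 43 in control, or 3.94 and 5.19 CPM of coding reads against 3.02 and 2.17 CPM.

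Most of the other leaders carried few footprints. CPC had 29 and 16 in low phosphate and 53 and 10 in control over 156 nt, and LRL1 35 and 25 in low phosphate and 7 and 23 in control over 45 nt, each overlapping between conditions once scaled to depth. RSL4 had 7 and 6 in low phosphate against 15 and 3 in control. RHD6, whose leader is 112 nt, had 12 and 6 against 2 and 4, or 0.983 and 0.727 CPM of coding footprints against 0.297 and 0.580 CPM, with no overlap. LRL2 went the other way over its 51 nt, with 9 and 4 in low phosphate against 12 and 6 in control, or 0.738 and 0.484 CPM against 1.78 and 0.869 CPM, also with no overlap. GL2 had at most 4 in any library. These counts are too low for a test of single genes and are given as a description. Over all genes, 5′ UTR footprints came to 9.85% and 13.4% of coding footprints in low phosphate and 18.7% and 12.9% in control. The leader values above were not scaled to these shares. How many of all leaders show no overlap was not counted, so no background stands beside RSL2, RHD6 and LRL2. In coding footprints 19.5% of genes lay above and 18.4% below.

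Small RNA loci lay over 2 of the 7 members with rows for both UTRs, RSL2 and LRL1, where 26.1% of 19110 such genes held one. The labels name this table under the 1 small RNA sample used here, from control roots, and the table itself does not say which reads it sums. A low phosphate small RNA sample was not analysed here. The RSL2 locus, on chromosome 4 from 16240514 to 16241140, held 109 reads, 100% of them on the strand of the gene, and the LRL1 locus, on chromosome 2 from 10321687 to 10322220, held 101 reads, 95.0% of them on that strand. Neither had a size class in the authors' table. Their most abundant RNAs, written 5′ to 3′ in lower case with no part marked, show what was sequenced there, 23 and 30 nt long:
RSL2: uugcaaucugagaucucugugac
LRL1: agggaucgggaggaggauugaugaaccaac
Both loci hold few reads beside the median of 349 per locus.

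Genes whose pattern was most like that of a member were sought among 17364 genes over the 8 coding libraries, as Pearson's r of deviations from each assay's mean. These are descriptions, and the libraries share depth and condition. Most like RSL2 were AT5G10740 and AT4G26830 (r = 0.993 each) and WRKY45, a WRKY factor gene (r = 0.992). For LRL3 they were AT1G08340, AT1G64610 and GLR2.9 (r = 0.991, 0.988 and 0.981), and for RSL4 BRU6, AT4G01700 and GSTF7 (r = 0.990, 0.987 and 0.987). RHD6 was followed most closely by PLA2-ALPHA (r = 0.982), LRL1 by AT2G37035 (0.984), LRL2 by AT5G03440 (0.984), CPC by NDT1 (0.982), GL2 by GSTF8 (0.976) and WER by RFC2 (0.970). RSL1 was left out because of its low counts.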

How the data were processed

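The authors deposited raw counts of reads per gene for the coding sequence (footprints and poly(A) RNA) and for double-stranded RNA, and RPKM values for UTRs, as their tables are titled. The deposited small RNA table gives a read count and the fraction of reads on the top strand per locus, per the file headers. The submitters' processing notes name CASAVA 1.8, TopHat 1.3.1, Bowtie2 2.2.9 and TAIR10. No source used here names the counter or its strand setting, so reads of genes that overlap, lie antisense or are near copies may be shared. Footprints of 26 to 32 nt were selected after capture of tagged ribosomes, per the labels' protocols, and poly(A) RNA came from a cleared extract.

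In R 4.3.3, edgeR 4.0.16 scaled the counts by TMM, applied its default low-count filter by group and made 1 quasi-likelihood fit of the 8 coding libraries, with the 4 double-stranded RNA libraries fitted apart. Tests are two-sided, p-values are Benjamini-Hochberg adjusted over all genes tested and called under 0.05, and log2 changes carry their SE. CPM use the TMM library sizes. The fits were tested on simulated data. Alternatives were DESeq2 1.42.0, RLE scaling, no filter, a replicate block, separate fits, leaving out each library and, chosen after seeing the data, a robust fit.

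Dividing UTR RPKM by the value of 1 read gave whole reads within 0.01; the library totals behind the poly(A) RPKM did not follow the coding totals (ratio 0.453 to 0.965), so reads were scaled to coding totals for comparisons between libraries. The planned order of coding levels per length needs coding lengths, which were not used here, and 3′ UTR RPKM took its place. Deposited uORF scores and noncoding RNA counts were not used.

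A TAIR10.1 reference table supplied gene names: 26719 of 27416 identifiers matched. The 10 members and the lists were chosen with earlier results of these data known. Besides the members, the rule named up to 4 called genes of smallest p per list, ARF19, PHR1, TTG1, AT2G14760 and EXPA7, and the 3 genes most like each member whose log2 CPM averaged 1 or more.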

Additional observations from a re-analysis of the deposited data

Results flagged for a closer look

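Small RNA reads at loci overlapping the RSL2 gene (109) and the LRL1 gene (101) come from a table outside the comparisons of low phosphate with control. They lie above the 3 reads that a count of 0 would allow, but the table lists loci of 90 reads or more, so presence in it is a condition of being seen. The labels name the table under a small RNA sample of control roots, and a low phosphate one was not analysed here.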

How the results depend on the processing

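Of 752 results of the 10 genes under alternatives, 721 kept their direction, 33 no longer passed and 18 newly passed; of 777 results of the named list genes 19 changed direction. In poly(A) RNA 2 members passed without the low-count filter, with DESeq2 and in a separate fit, and 1 with the robust fit, which was chosen after seeing the data; in footprints a separate fit called 0. Genes called in poly(A) RNA numbered 235, against 371 without the filter and 425 with DESeq2, and in footprints 237, against 425 and 482. The translational efficiency of LRL1 turned to 0.0078 with RLE scaling, 0.0056 without the filter and 0.0079 with DESeq2. The cause was not tested for these changes.

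Same-numbered libraries of the conditions did not deviate together (r = 0.04 in poly(A) RNA, -0.05 in footprints and -0.02 in double-stranded RNA), so a replicate block is given here alone: it called 2 members and 422 genes in poly(A) RNA and 418 genes in footprints, with adjusted p of 0.0174 for RSL2 and 0.0378 for LRL3 in poly(A) RNA, and LHCA1 in poly(A) RNA turned to 0.20. It also called SUC2 in poly(A) RNA and footprints (adjusted p = 0.00973 and 0.00489) and, for footprints over poly(A) RNA in control, RHD6 (0.63, adjusted p = 0.0383) and LRL3 (-0.61, adjusted p = 0.0430). With footprint and poly(A) libraries as pairs (r = 0.45 in low phosphate and 0.27 in control), the block called 8 genes for translational efficiency, none of them a member, and gave LRL1 0.0055.

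Leaving out 1 library at a time, where the lone sample left is assumed to vary like the other groups, gave 0 to 2 members called in poly(A) RNA, 0 to 1 in footprints, 1 to 4 in double-stranded RNA, 0 to 3 for footprints over poly(A) RNA in low phosphate and 1 to 4 in control. Genes called ran from 59 to 248 in poly(A) RNA, 93 to 211 in footprints, 819 to 5218 in double-stranded RNA, 3730 to 6850 for footprints over poly(A) RNA in low phosphate and 3801 to 6869 in control. Hair growth genes called ran from 3 to 16, 8 to 17 and 18 to 28 in poly(A) RNA, footprints and double-stranded RNA. Log2 values that changed sign had these ranges: in poly(A) RNA, ARF19 -0.16 to 0.47, LHCA1 -0.71 to 1.20, LRL1 -0.29 to 0.024, PHR1 -0.13 to 0.058, PSBO1 -0.17 to 0.49, WER -0.046 to 0.18. In footprints, ARF19 -0.0011 to 0.34, ARF5 -0.13 to 0.17, CASP1 -0.25 to 0.20, CASP2 -0.28 to 0.23, CPC -0.92 to 0.33, GL2 -0.15 to 0.49, LHCA1 -0.73 to 0.51, LRL1 -0.33 to 0.099, LRL2 -0.49 to 0.25, PSBO1 -0.40 to 0.18, TTG1 -0.16 to 0.14. In translational efficiency, GL2 -0.51 to 0.15, LRL1 -0.20 to 0.23, LRL2 -0.71 to 0.018, LRL3 -0.56 to 0.31, RHD6 -0.60 to 0.10, RSL1 -2.81 to 0.45, RSL2 -0.14 to 0.80, RSL4 -0.48 to 0.089. In double-stranded RNA, GL2 -0.16 to 0.73, TTG1 -0.48 to 0.027. In footprints over poly(A) RNA in low phosphate, GL2 -0.39 to 0.27. In footprints over poly(A) RNA in control, RSL2 -0.68 to 0.26.

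With 2 libraries a group, RSL1 and CPC in double-stranded RNA were too shallow to test. The orders of coding levels per length and by library totals and a promoter motif search were not run.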
